A study of Homo sapiens with 12 samples.

Results

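The SNU449-Rego cells, a Rego-resistant population of the hepatocellular carcinoma line SNU449 with an intact AXL gene, were compared with the other 3 cell populations of the experiment at once. The comparison used 3 of the 12 libraries against the remaining 9, over 15601 genes. SNU449-Rego cells had been raised by exposing SNU449 cells to the multikinase inhibitor regorafenib (Rego) at 50% of its IC50, with stepwise increases up to 2 times the IC50. The other groups were SNU449-ctrl (no AXL deletion, not exposed to Rego), SNU449-Axl-KO-ctrl (AXL knockout, not exposed) and SNU449-Axl-KO-Rego (AXL knockout, made resistant by the same dosing), each with 3 libraries. According to the labels, resistant cells received Rego again after each splitting, so resistance and the presence of the drug cannot be told apart. The 3 libraries of a group were technical triplicates of 1 cell population, and no second, separately selected resistant population was sequenced. The p-values below therefore measure the spread between libraries and not between independently selected cells. RNA was measured by QuantSeq, which counts the 3′ ends of polyadenylated transcripts, and the depth per library is unknown. In bulk RNA, fewer cells with a transcript and less transcript per cell cannot be told apart.

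Rego blocks kinases of several families, among them VEGF receptors, FGFR1, PDGFR-beta, KIT, RET and RAF kinases. Tumour cells that keep dividing under such a drug commonly differ from their parents in growth factor signalling, adhesion and matrix genes, stress responses and metabolism. All values below are levels, defined as log2(value + 1) of the deposited library value, and differences are differences of such levels. The scale is compressed at its low end, where the lowest level of any gene in any library was 3.70, so that differences of weakly measured genes are understated and are no bound on a fold change.

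AXL, the receptor tyrosine kinase removed in the knockout cells, was used to check the groups. Its level was 10.27, 9.67 and 10.31 in the SNU449-Rego libraries and 9.51, 9.88 and 9.48 in SNU449-ctrl. In SNU449-Axl-KO-ctrl it was 5.17, 5.75 and 5.09, and in SNU449-Axl-KO-Rego 5.67, 5.29 and 5.73. The knockout libraries were thus far below both groups with an intact gene, while the SNU449-Rego and SNU449-ctrl libraries overlapped. The SNU449-Rego minus SNU449-ctrl difference was 0.46 (adjusted p = 0.27, limma). Of 12 hepatocyte markers, 4 were in the table, and ALB, APOB and HNF4A were not among the genes measured. FGB had the highest mean normalized count of the 4, 103.7 as given by the authors over all libraries. Its mean level was 8.29 in SNU449-Axl-KO-Rego but 4.85 in SNU449-Rego, 4.74 in SNU449-ctrl and 5.80 in SNU449-Axl-KO-ctrl. Among 5 cholangiocyte markers, KRT7 and SOX9 were measured, with authors' mean counts of 430.6 and 304.9. All 6 mesenchymal markers were measured, with authors' mean counts from 158 for ZEB1 to 18945 for VIM. Of 4 immune markers 2 were measured, neither with a mean count above 6.19, and none of the 4 endothelial markers was.

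For each gene it was asked whether the 3 SNU449-Rego libraries were all above or all below every one of the 9 other libraries. This was so for 916 of 15601 genes (5.87%), with 512 genes above (3.28%) and 404 below (2.59%). Such a count was not particular to SNU449-Rego. The same rule gave 1128 genes for SNU449-ctrl (7.23%), 966 for SNU449-Axl-KO-ctrl (6.19%) and 757 for SNU449-Axl-KO-Rego (4.85%). With libraries centred on the spike-in RNAs, 131 genes were above and 762 below, so the balance of directions depends on the scaling. The median distance of SNU449-Rego to the mean of its nearest other group was 0.41 for the genes above and 0.40 for those below. In 363 of the 512 genes above and 274 of the 404 below, that distance was wider than the whole spread of the other 3 group means. The rule itself favours such genes, and the count was not made for the other groups. It therefore does not show that SNU449-Rego was set further apart than they were. The nearest group was SNU449-Axl-KO-Rego for 39.5% of the genes above and 39.1% of those below, and SNU449-ctrl for 27.9% and 28.7%. Protein-coding genes made up 89.1% of the genes above and 89.4% of those below, against 79.1% of all genes tested. These genes were also better measured, with median authors' mean counts of 75.4 above and 140 below against 57.1 over all genes. The part of this in the share was not tested. Many genes lay close to the edge of the rule, as 235 genes above and 186 below had a gap under 0.1. Among genes with an authors' mean count of at least 50, LSM8, just inside, had its lowest SNU449-Rego library at 8.34 and the highest of the 9 others also at 8.34, a margin of 0.0044, and MTPN, just outside, missed it by 0.0032. Among the genes below, WWTR1 was inside by 0.0017 and UTP3 outside by 0.0052.

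The 12 genes above and the 12 below with the widest gap between the SNU449-Rego libraries and the nearest other library are described first. They were picked by these levels, which are given as a description without a test. IGFBP5, a secreted protein that binds insulin-like growth factors, had the widest gap of all genes, 6.28. Its level was 12.45, 13.35 and 11.80 in SNU449-Rego. In the 9 other libraries it was between 4.25 and 5.52, with a median of 4.64, near the low end of the scale. All 3 groups without this rise, the Rego-resistant knockout cells included, were alike at mean levels of 4.70, 4.58 and 5.01. IGFBP5 (ENSG00000115461.5) occupies chr2:216672105-216695549 of GRCh38 and is read from the minus strand.

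The sequences of 2 start regions are shown, for the gene with the widest gap above and for PLIN2, which lay lower and is described below. Each holds the 250 bases before the RefSeq transcript start (GRCh38.p14, minus strand, chr2:216695550-216695799 for IGFBP5 and chr9:19127493-19127742 for PLIN2), written 5′ to 3′ along the gene. Capitals mark matches, searched on both strands, to the TATA box TATAAA, to its variant form TATTTA, to the E-box CACGTG or to the GC box GGGCGG.
IGFBP5: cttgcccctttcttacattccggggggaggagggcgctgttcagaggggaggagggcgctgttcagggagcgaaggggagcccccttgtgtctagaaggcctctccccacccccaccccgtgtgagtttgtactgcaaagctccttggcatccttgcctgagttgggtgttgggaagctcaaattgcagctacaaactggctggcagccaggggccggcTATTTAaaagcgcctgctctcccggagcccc
PLIN2: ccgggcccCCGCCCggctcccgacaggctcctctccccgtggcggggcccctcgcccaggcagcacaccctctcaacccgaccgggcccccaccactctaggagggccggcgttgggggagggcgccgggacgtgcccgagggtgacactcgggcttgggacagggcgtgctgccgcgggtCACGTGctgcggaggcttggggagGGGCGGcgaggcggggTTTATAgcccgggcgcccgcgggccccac
IGFBP5 held 1 TATTTA, and PLIN2 held 1 TATAAA, 1 CACGTG and 2 GGGCGG. Over the same window of all 35116 promoters in the table, TATTTA was found in 11.7%, TATAAA in 10.7%, CACGTG in 6.34% and GGGCGG in 42.6%. Of the 24 widest-gap genes, 20 matched the table, and 4 of them held TATTTA, 4 TATAAA, 4 CACGTG and 11 GGGCGG. These are matches of letters and no evidence of binding.

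The next widest gaps above were those of PAGE1 and TSTD1. PAGE1, a cancer/testis antigen gene of the X chromosome, was at 8.25, 8.91 and 7.67 in SNU449-Rego and between 4.25 and 5.55 in the other libraries. TSTD1, a gene of sulphur metabolism, was at 6.57, 7.40 and 7.07 against 4.39 to 5.17. Both were near the low end of the scale in every other library. EGLN3, a prolyl hydroxylase that marks hypoxia-inducible factors for degradation, was at 6.79, 6.95 and 5.88 against 4.17 to 5.09. IL13RA2, a decoy receptor of interleukin 13, was at 5.61, 5.58 and 5.88 against 4.46 to 4.70. SCRN1 was the only one of the 12 with levels well up the scale in all groups, at 8.43, 8.39 and 8.34 against 6.75 to 7.62. The remaining genes were RIPOR3, SIGLEC15, ALPG, CLDN14, RNF144B and PRRX1. CLDN14 (a claudin of tight junctions) and PRRX1 (a mesenchymal homeobox factor) had authors' mean counts of 3.23 and 3.73, so that few reads stand behind them. ALPG, a placental-type alkaline phosphatase, rested mostly on 1 library, with 5.83, 8.29 and 5.64 in SNU449-Rego.

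Among the genes below, PPP2R2C, a regulatory subunit of protein phosphatase PP2A, had the widest gap, -1.87. It was at 4.91, 4.70 and 4.52 in SNU449-Rego and between 6.78 and 8.14 elsewhere. Its SNU449-Rego libraries were near the low end of the scale. PLIN2, which coats lipid droplets, was at 8.67, 8.30 and 8.28. The other groups had it at 11.17, 11.42 and 12.23 (SNU449-ctrl), 11.12, 10.24 and 10.94 (SNU449-Axl-KO-ctrl), and 10.59, 11.58 and 10.09 (SNU449-Axl-KO-Rego). PLIN2 was thus well measured in every library, with an authors' mean count of 1888, and lower in SNU449-Rego than in each other group. PPARG, a nuclear receptor of fat storage genes, was at 6.25, 6.07 and 6.17 against 7.18 to 8.29. FABP5, an intracellular carrier of fatty acids, was at 5.64, 5.49 and 5.67 against 6.57 to 7.66. In both, the spread within SNU449-Rego (SD 0.09 and 0.10, n = 3) was small beside the gap. HPGD, which breaks down prostaglandins, was at 6.66, 6.74 and 5.93 against 7.75 to 9.64. CP, the copper-carrying ferroxidase ceruloplasmin, was at 5.36, 5.32 and 4.39 against 6.51 to 8.58. The kinase SGK2, the nuclear receptor corepressor NRIP1, the chromatin reader SP140, the urothelial plaque protein UPK1B, CYYR1 and RIMKLB completed the 12.

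**Figure D1:**
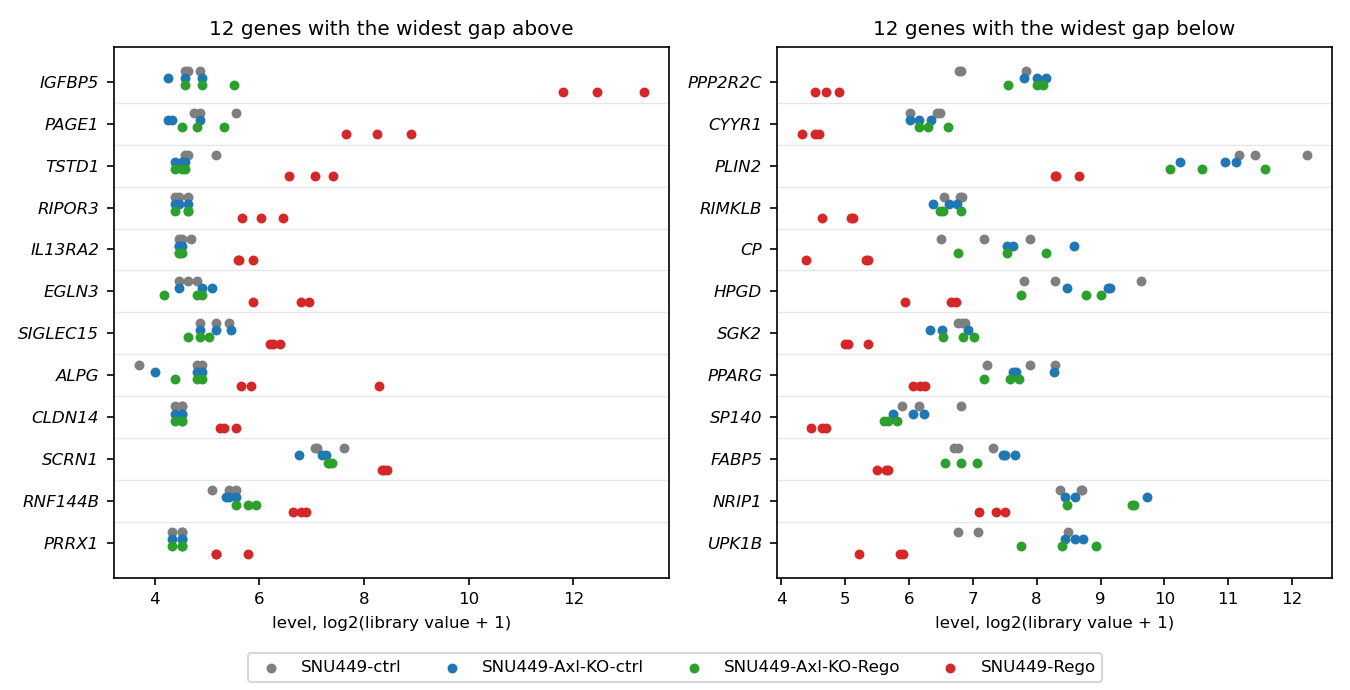
Levels, log2(library value + 1), of the 24 genes with the widest gaps between the 3 SNU449-Rego libraries and the nearest of the 9 others, 1 point per library and 1 colour per group. The gap of IGFBP5 was 6.28, and for most genes on the left the other groups lie near the low end of the scale. On the right, the SNU449-Rego points of PPP2R2C, CYYR1, SP140, RIMKLB, CP and SGK2 lie there.

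Which genes differed from every other group beyond the spread between libraries was asked with limma, taking for each gene the largest of the 3 pairwise p-values. A total of 25 of 15601 genes passed (0.16%), 13 higher (0.0833%) and 12 lower (0.0769%). With libraries centred on the spike-in RNAs, 6 were higher and 23 lower. IGFBP5 differed by 7.84, 7.95 and 7.53 from SNU449-ctrl, SNU449-Axl-KO-ctrl and SNU449-Axl-KO-Rego (adjusted p = 6.11e-11 for the largest of the 3). PAGE1 differed by 3.22, 3.80 and 3.39 (adjusted p = 2.44e-05) and TSTD1 by 2.21, 2.51 and 2.51 (adjusted p = 4.25e-05). On the lower side, PPP2R2C differed by -2.44, -3.27 and -3.17 (adjusted p = 7.9e-05), PLIN2 by -3.19, -2.35 and -2.33 (adjusted p = 0.00288) and CYYR1 by -1.84, -1.69 and -1.88 (adjusted p = 0.000428). Others higher included RIPOR3, IL13RA2, EGLN3, SIGLEC15, CLDN14, SCRN1, RNF144B, LRATD2 and DIRC3. RIMKLB, SGK2, CP, HPGD, PPARG, FABP5, SLC2A3 (the glucose transporter GLUT3), RBM20 (a splicing factor) and C1orf21 were lower. Of the 25, 10 kept the call without any 1 of the 12 libraries, namely IGFBP5, PAGE1, TSTD1, RIPOR3, IL13RA2, PPP2R2C, PLIN2, CYYR1, RIMKLB and SGK2. The other 15 lost it without at least 1 library, among them PPARG, which kept it in 2 of 12 fits, and CLDN14, which kept it in 0 of 12. Near the low end of the scale, RIPOR3 was at 4.64, 4.39 and 4.46 in both unexposed groups. IL13RA2 (4.46, 4.52 and 4.46) and TSTD1 (4.52, 4.39 and 4.58) had equal values in both knockout groups. Such values leave little spread between libraries, so that keeping the call says little there. The authors' mean counts of RIPOR3 and IL13RA2 were 10.4 and 5.88. In genes with an authors' mean count of at least 50, 7 genes were called, and 7 when each pair of groups was taken from its own table.

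Against the mean of the other 3 groups, 905 of 15601 genes were called (5.8%), 480 higher (3.08%) and 425 lower (2.72%). Of these, 843 had a SNU449-Rego mean beyond all 3 other group means, and 498 had all 3 libraries outside the 9 others. A difference from the mean can still rest on 1 group. Of the 905 genes, 109 were called in all 3 pairwise contrasts, 354 in 2, 400 in 1 and 42 in 0. Where a single pairwise contrast was called, it was that with SNU449-ctrl in 194 genes, with SNU449-Axl-KO-ctrl in 120 and with SNU449-Axl-KO-Rego in 86. UCHL1, a neuronal ubiquitin hydrolase, shows such a case, with 4.46, 4.52 and 4.46 in SNU449-Rego, 9.98, 10.19 and 10.42 in SNU449-ctrl and no library above 4.81 in the knockout groups. Its difference of -1.94 from the mean (adjusted p = 4.1e-07) came from SNU449-ctrl alone, and both knockout groups were as low as SNU449-Rego. Each pairwise contrast on its own called 1219 genes against SNU449-ctrl (7.81%), 872 against SNU449-Axl-KO-ctrl (5.59%) and 682 against SNU449-Axl-KO-Rego (4.37%). Centred on the spike-in RNAs, 175 genes were higher and 674 lower than the mean of the other groups, and centred on the median gene 380 and 499. The 905 calls fell to 479, 307 and 378 without SNU449-Rego replicate 1, 2 and 3, and to 587 without SNU449-Axl-KO-Rego replicate 1.

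The called genes were then read by pathway, from 31 lists with 709 measured genes, of which 103 were called (14.5%), 43 higher and 60 lower (28 and 90 with libraries centred on the spike-in RNAs). The lists hold genes for which differences between these populations were already known, so that a share above the 5.8% of all genes is no result about a list. Of the 87 list members put forward by the naming rule (up to 5 per list), 27 kept the call without any 1 library and 60 lost it without at least 1. For those named below that lost it, the highest adjusted p without 1 library is given, which in each case was reached without a SNU449-Rego library. The called list members IGFBP7, PRRX1, WWTR1 and AKR1C2, also named below, were not among the 87. Whether they kept the call without 1 library is not given.

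**Figure D2:**
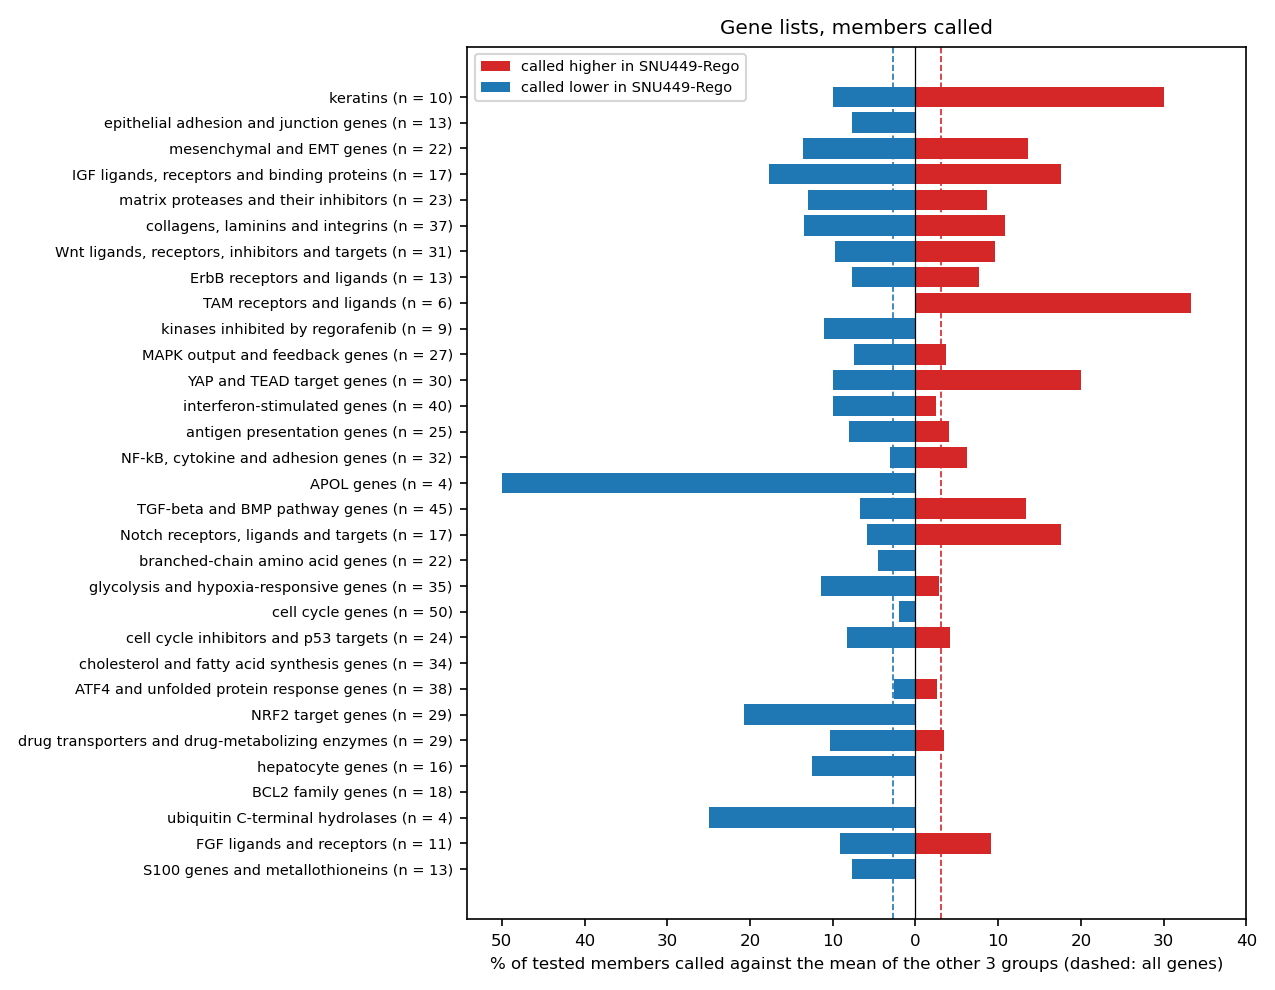
Percentage of the tested members of each of the 31 lists called higher (right) or lower (left) in SNU449-Rego than the mean of the other 3 groups, with dashed lines at the 3.08% and 2.72% of all genes. NRF2 target genes were called only on the lower side (6 of 29). So were lists with 1 or 2 calls, such as the APOL and hepatocyte genes, while TAM genes were called only on the higher side (2 of 6). No gene was called among the cholesterol and fatty acid synthesis and BCL2 family genes.

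Receptors and ligands came first. Of 13 ErbB receptors and ligands, 1 was called higher and 1 lower. NRG1, a ligand of ErbB3 and ErbB4, was at 8.22, 8.38 and 7.94 in SNU449-Rego and between 8.91 and 9.70 in the 9 other libraries. It lay below all of them, with a difference of -1.06 ± 0.19 (SE) from the mean (adjusted p = 0.00297). The receptor ERBB4 was at 5.39, 5.75 and 5.73 in SNU449-Rego and between 4.46 and 5.17 elsewhere, near the low end of the scale, with an authors' mean count of 8.02. ERBB4 was thus higher than the mean of the other groups by 0.77 ± 0.15 (SE, adjusted p = 0.00419, 0.0586 without SNU449-Rego replicate 2) in the population in which NRG1 was lower. Against SNU449-Axl-KO-Rego alone, no member of this list was called higher, ERBB4 included. EGFR, ERBB2 and ERBB3 differed by 0.33, 0.10 and -0.27, none of them called. Of 6 measured TAM receptors and ligands, AXL (3.25 ± 0.19 SE, adjusted p = 1.19e-08, carried by the 2 knockout groups) and LGALS3, a galectin, were called higher. GAS6, the ligand of Axl, differed by 0.39 ± 0.18 (SE) and was not called. FGFR1, a target of Rego, was the only one of 9 Rego-inhibited kinases called, lower by 1.03 on the log2 scale than the mean of the other groups. Its group means were 8.92 in SNU449-Rego, 9.11 in SNU449-ctrl, 10.18 in SNU449-Axl-KO-ctrl and 10.56 in SNU449-Axl-KO-Rego, so it separated the knockout groups from the others. Of 27 MAPK output and feedback genes, SPRY2 was called higher, and DUSP5 and EPHA4 lower. The calls of LGALS3, SPRY2, DUSP5 and EPHA4 were lost at adjusted p up to 0.174, 0.0559, 0.159 and 0.388, without SNU449-Rego replicate 2, 2, 1 and 3. EPHA4 also lost it in the other table over all libraries (0.0561).

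Insulin-like growth factor genes moved in both directions, with 3 of 17 called higher and 3 lower. Besides IGFBP5, the binding proteins IGFBP2 (0.73 ± 0.15 SE) and IGFBP7 (0.67 ± 0.18 SE) were higher, but with libraries centred on the spike-in RNAs 1 of the 3 higher calls was left, and that of IGFBP2 was lost (adjusted p = 0.0512). IGFBP7 was called against SNU449-Axl-KO-ctrl alone among the 3 groups, with means of 12.66 in SNU449-Rego, 12.13 in SNU449-ctrl, 11.34 in SNU449-Axl-KO-ctrl and 12.48 in SNU449-Axl-KO-Rego. IGF1R, the main signalling receptor of the family, was at 6.55, 6.38 and 6.21 in SNU449-Rego and between 6.82 and 7.80 elsewhere. It was the called member that lay below all 9 other libraries, with a difference of -0.97 ± 0.21 (SE, adjusted p = 0.0102, 0.101 without SNU449-Rego replicate 3). IGFBP1 and IGFBP3 were lower by 1.56 and 0.89 on the log2 scale, IGFBP3 with a call against SNU449-Axl-KO-Rego alone, while INSR and IGF2R differed by 0.36 and 0.03 and were not called. IGFBP1 and IGFBP3 lost the call without SNU449-Rego replicate 2 (0.102 and 0.19) and IGFBP2 without replicate 3 (0.0872). IGFBP2 lies 7.67 kb from IGFBP5 on the opposite strand, with 6.19, 6.15 and 6.39 in SNU449-Rego and 5.13 to 5.98 in the other libraries. DIRC3, a long noncoding RNA 588 kb from IGFBP5 on the other side, was at 6.19, 6.58 and 5.32 against 4.32 to 4.91. Of the 16 genes measured within 1500 kb of IGFBP5, a window chosen after the values were seen, these 3 lay above all 9 other libraries and 0 lay below.

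Genes of the cytoskeleton, matrix and adhesion followed. TAGLN, an actin-binding protein of smooth muscle and mesenchymal cells, was at 9.21, 8.37 and 10.08 in SNU449-Rego and between 4.46 and 7.99 elsewhere, a difference of 2.39 ± 0.53 (SE, adjusted p = 0.0116, 0.162 without SNU449-Rego replicate 3). CCN2, a matricellular protein and YAP target, was at 8.73, 8.87 and 9.29 against 6.19 to 8.32 (1.26 ± 0.26 SE, adjusted p = 0.00692, or 0.0984 without SNU449-Rego replicate 3). Both lay above all other libraries. TGFBI, a matrix protein that TGF-beta induces, was at 9.36, 9.43 and 9.65 against 9.82 to 12.66, and the EMT factor ZEB2 was lower by 0.92 on the log2 scale. The 22 mesenchymal and EMT genes thus split into 3 called higher (AXL, PRRX1, TAGLN) and 3 lower (TGFBI, FN1, ZEB2), with the call of AXL carried by the knockout groups. FN1, fibronectin, had group means of 8.86 in SNU449-Rego and 8.85 in SNU449-Axl-KO-ctrl but 11.10 in SNU449-ctrl and 11.32 in SNU449-Axl-KO-Rego. It was therefore low in a pair of groups that share neither AXL status nor treatment. SERPINE2, an inhibitor of thrombin and plasminogen activators, was at 10.16, 9.86 and 9.84 against 10.40 to 12.39 (-1.79 ± 0.22 SE, adjusted p = 7.81e-05). COL1A2, a chain of type I collagen, lay above all other libraries by 0.06 (1.12 ± 0.18 SE, adjusted p = 0.000901). LAMA4, a laminin chain, was at 4.94 ± 0.43 in SNU449-Rego and 4.70 in SNU449-Axl-KO-Rego, against 8.99 and 8.34 in the unexposed groups, and so was low in both resistant populations. MMP7, a matrix protease, was at 9.06 ± 0.31 (SD, n = 3) in SNU449-Rego, 5.45 in SNU449-ctrl, 5.70 in SNU449-Axl-KO-ctrl and 11.43 in SNU449-Axl-KO-Rego. Keratins KRT7, KRT81 and KRT80 were called higher, with KRT7 at 9.24 ± 0.69 in SNU449-Rego, 4.77 in SNU449-ctrl and 8.48 and 9.05 in the knockout groups. KRT7 and KRT81 were low in SNU449-ctrl only, and none of these 3 had its SNU449-Rego libraries outside all 9 others. Of 13 epithelial adhesion genes, 1 (DSP, desmoplakin) was called, lower, but it was at 4.87 in SNU449-Rego, 5.25 in SNU449-ctrl, 4.78 in SNU449-Axl-KO-ctrl and 7.79 in SNU449-Axl-KO-Rego, so that the call came from the last group alone. Without 1 SNU449-Rego library the adjusted p reached 0.0848 for KRT7, 0.0901 for KRT81 and 0.141 for KRT80 (replicate 3), 0.0679 for FN1 (replicate 1), and 0.0572 for TGFBI and 0.0577 for DSP (replicate 2).

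Signalling targets were mixed. Of 30 YAP and TEAD target genes, 6 were called higher and 3 lower (2 and 3 with libraries centred on the spike-in RNAs). The higher ones included AXL, whose call was carried by the knockout groups, and the lower ones the coactivator WWTR1 itself (-0.55 ± 0.16 SE). TGF-beta and BMP genes had 6 of 45 higher, among them the BMP antagonist GREM1 (1.11 ± 0.16 SE, adjusted p = 0.000429) and the stress hormone GDF15, and 3 lower, among them ID2 (-1.11 ± 0.20 SE). ID3, of the same family of inhibitors of differentiation, differed by 0.94 in the other direction. Of 17 Notch genes, DLL3, HES1 and JAG2 were called higher and NOTCH2 lower. DLL3, an inhibitory Notch ligand, was at 6.85, 6.91 and 6.98 against 5.91 to 6.36. Wnt genes had 3 of 31 called in each direction, with WNT7B up by 1.43 and WNT5A down by 1.57 on the log2 scale. The receptor ROR2, to which WNT5A binds, was lower by 1.09 on the log2 scale and below all 9 other libraries. APOL1, a lipoprotein of innate immunity, was at 5.86, 6.38 and 5.91, against 10.01, 10.02 and 10.17 in SNU449-ctrl and 6.73 to 7.79 in the knockout groups. It was the lowest in SNU449-Rego with a difference of -2.15 ± 0.16 (SE, adjusted p = 2.04e-07). Of 40 interferon-stimulated genes, 1 was higher and 4 lower, of 25 antigen presentation genes 1 and 2, and of 32 NF-kB, cytokine and adhesion genes 2 and 1. Of the genes named here, GDF15 and NOTCH2 lost the call without SNU449-Rego replicate 3 (adjusted p = 0.2 and 0.165), ID3 without replicate 1 (0.164), and HES1 and JAG2 without replicate 2 (0.0995 and 0.272). JAG2 also lost it with libraries centred on the spike-in RNAs (0.0771).

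In metabolism and stress responses, NRF2 target genes, like some lists with 1 or 2 calls, were called in 1 direction against the mean of the other groups. Of 29 measured, 6 were lower and 0 higher (9 and 0 under both other scalings), against 2.72% of all genes called lower. As said above, such a share is no result about the list. Against SNU449-ctrl alone, 9 were lower and 2 higher, against SNU449-Axl-KO-ctrl 3 and 0, and against SNU449-Axl-KO-Rego 9 and 0. The median difference over the 29 was -0.24, against -0.0088 over all genes. GSR, glutathione reductase, was at 8.84, 8.38 and 9.07 in SNU449-Rego and between 9.61 and 10.43 in the other libraries (-1.06 ± 0.18 SE, adjusted p = 0.00148). PIR (-0.99 ± 0.17 SE) and the pentose phosphate enzyme TKT (-0.93 ± 0.17 SE) also kept the call without any 1 library. GCLM and TXNRD1 lost it without SNU449-Rego replicate 2, at adjusted p = 0.247 and 0.206, and AKR1C2 was called at 0.0464. A pair of NRF2 target genes often used as its readout, NQO1 and HMOX1, differed by -0.01 and -0.02 and were not called, nor was GCLC (-0.15). GSR lies on chromosome 8, TKT on chromosome 3 and PIR on the X chromosome, the 3 chromosomes with the highest shares of genes below, and the part of position in these values was not tested.

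Of 35 glycolysis and hypoxia-responsive genes, EGLN3 was higher and 4 were lower (8 with libraries centred on the spike-in RNAs). SLC2A3 was at 5.00, 4.58 and 4.52 against 5.81 to 6.71, and BNIP3, BNIP3L and HK1 were lower by 0.67, 0.74 and 0.59 on the log2 scale. CYP24A1, which inactivates vitamin D, was at 6.64, 6.34 and 5.88 against 6.95 to 9.49 (-2.09 ± 0.23 SE, adjusted p = 2.83e-05), and the aldehyde dehydrogenase ALDH1A1 was below all other libraries too, while ALDH1A3 was called higher. PLK2, a p53-responsive kinase, was at 9.28, 9.44 and 9.38 against 10.08 to 10.84 (-1.05 ± 0.14 SE, adjusted p = 0.000199). Of 50 cell cycle genes, MCM4 was called, lower. Without 1 SNU449-Rego library the adjusted p reached 0.157, 0.277 and 0.271 for BNIP3, BNIP3L and MCM4 (replicate 3), 0.117 and 0.275 for HK1 and ALDH1A3 (replicate 2) and 0.12 for ALDH1A1 (replicate 1). Of 34 cholesterol and fatty acid synthesis genes and 18 BCL2 family genes, limma called 0, with 4 and 3 genes at an unadjusted p under 0.05. With libraries centred on the median gene or the spike-in RNAs, 1 cholesterol or fatty acid synthesis gene was called, lower.

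Because PLIN2, PPARG and FABP5 were all among the 12 genes with the widest gaps below, 35 measured genes of PPAR signalling and fatty acid handling were looked up afterwards, as a list chosen after the values were seen. The 3 genes that prompted it were called, and 0 of the others. CPT1A, PDK4 and ANGPTL4, which PPAR factors induce in many cells, differed by -0.17, -0.11 and -0.26, and CD36 by 0.04.

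The genes outside all other libraries were not spread evenly over the genome. To keep weakly measured genes from weighing on this, 8189 genes with an authors' mean count of at least 50 were used, of which 308 were above (3.76%) and 296 below (3.61%). Chromosomes 6, 7 and 19 held 180 of the 308 genes above (58.4%) but 15% of the genes measured. The share above was 18.2% on chromosome 7 (63 of 347), 13.5% on chromosome 19 (65 of 481) and 13% on chromosome 6 (52 of 400). Below, chromosome 8 had 9.68% (30 of 310), chromosome 3 had 8.92% (42 of 471, with 0 above) and the X chromosome 8.14% (21 of 258). The numbers above depend on the scaling. With libraries centred on the spike-in RNAs, 80 of the 8189 genes were above and 500 below, and the genes above fell to 20 on chromosome 7, 16 on chromosome 19 and 11 on chromosome 6. The genes below were then 35 on chromosome 8 and 42 on chromosome 3. These chromosomes and the regions below were singled out after their values were seen and were not tested.

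**Figure D3:**
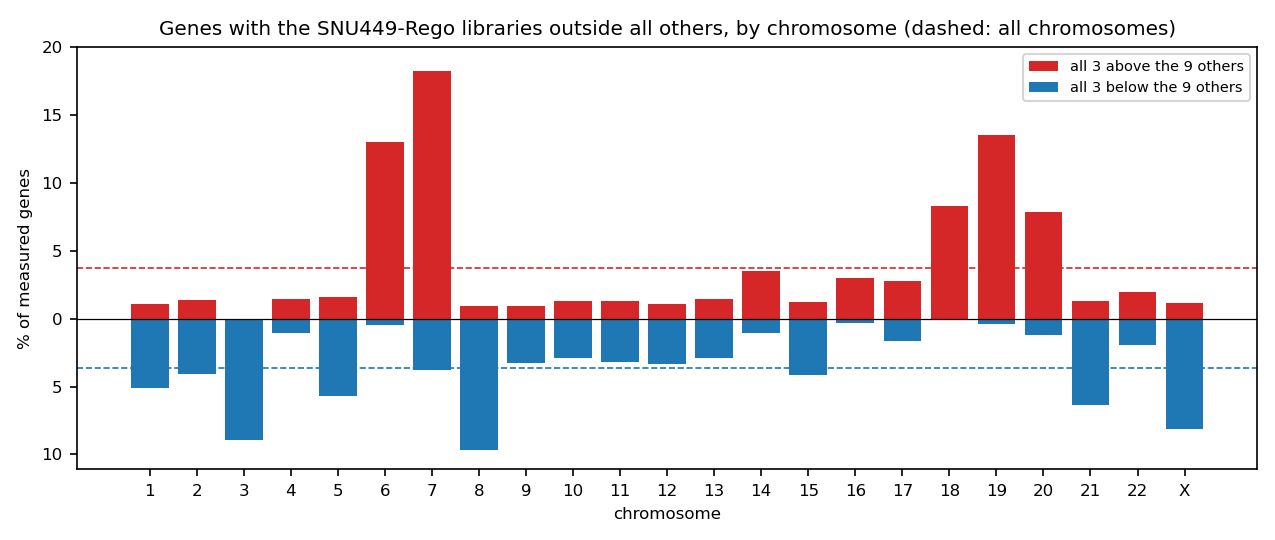
Percentage of the measured genes of each chromosome (authors' mean count of at least 50) whose 3 SNU449-Rego libraries were all above (upward bars) or all below (downward bars) the 9 others, with dashed lines at the 3.76% and 3.61% of all chromosomes. The upward bars of chromosomes 7, 19 and 6 are 18.2%, 13.5% and 13%.

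Each chromosome was divided at its widest interval between measured genes, which gave 43 regions. Chromosome 7 changed direction across this interval. After it (chr7:65873074-158956747, 214 genes), 61 genes were above and 0 below (19 and 0 with libraries centred on the spike-in RNAs). The median difference there was 0.35 from SNU449-ctrl, 0.35 from SNU449-Axl-KO-ctrl and 0.39 from SNU449-Axl-KO-Rego, nearly the same against each. SNU449-Rego had a mean above all 3 other group means in 162 of the 214 genes (75.7%) of this region, which was picked for its genes above. That share was 58.8% on chromosome 6 before its interval, 14% on chromosome 1 and 13.7% on chromosome 2. Before the interval of chromosome 7 (chr7:192571-56106476, 133 genes) it was 10.5%. There, 2 genes were above and 13 below, with median differences of -0.15, -0.13 and -0.21. The shift was not carried by the genes outside all libraries alone. Without them, the median difference from the mean of the other groups was 0.27 after and -0.14 before the interval.

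The library medians, taken from the same values of the same genes, describe this step library by library and are no separate evidence for it. After the interval, the median over genes of the level minus the mean of the 4 group means was 0.25, 0.24 and 0.27 in the SNU449-Rego libraries and between -0.12 and -0.02 in the 9 others. Before it, the values were -0.09, -0.17 and -0.16 against -0.01 to 0.11. Neither range of the 9 others reached a SNU449-Rego library. Genes after the interval included BUD23, a ribosomal RNA methyltransferase, at 9.41, 9.37 and 9.33 against 8.37 to 8.75, and TES, an actin-associated protein of focal adhesions, at 8.99, 8.93 and 9.32 against 6.85 to 8.45. COL1A2 lies in the same region, whereas SCRN1, which was higher too, lies before the interval, where most genes were lower.

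**Figure D4:**
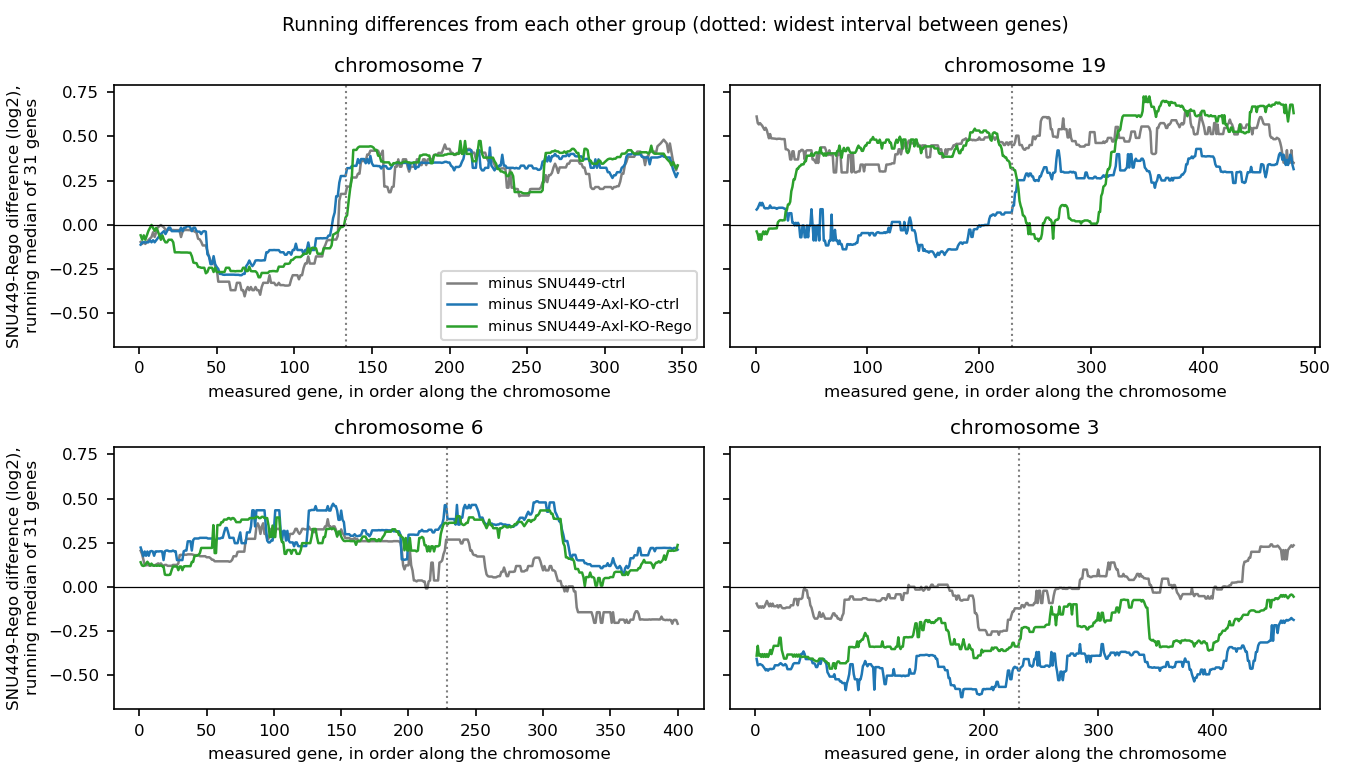
Running median over 31 genes of the SNU449-Rego difference (log2) from each other group, along chromosomes 7, 19, 6 and 3 in gene order, 1 line per other group, with the widest interval between genes dotted. On chromosome 7 the 3 lines rise together at the interval, from median differences of -0.15, -0.13 and -0.21 before it to 0.35, 0.35 and 0.39 after it, whereas before the interval of chromosome 3 the line against SNU449-ctrl (median -0.08) lies above those against the knockout groups (-0.48 and -0.34).

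Chromosome 19 behaved differently. After its interval (chr19:27681072-58605223, 252 genes, AXL among them), 51 genes were above and 0 below (14 and 0 with libraries centred on the spike-in RNAs), and the median differences were 0.51 from SNU449-ctrl, 0.30 from SNU449-Axl-KO-ctrl and 0.43 from SNU449-Axl-KO-Rego. The library medians were 0.23, 0.31 and 0.36 in SNU449-Rego and between -0.22 and 0.10 elsewhere. Before the interval (229 genes), the medians were 0.43 and 0.40 from SNU449-ctrl and SNU449-Axl-KO-Rego but -0.05 from SNU449-Axl-KO-ctrl, so there SNU449-Rego was not set apart from all groups. DLL3 and ERCC2, a helicase of DNA repair and transcription, were among the 51 genes above. On chromosome 6 before its interval (chr6:291630-57646850, 228 genes), 40 genes were above and 2 below (5 and 2 with libraries centred on the spike-in RNAs), with median differences of 0.21, 0.29 and 0.24. CCN2 is also on chromosome 6, after the interval, where 12 of 172 genes were above.

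Lower levels were found over the first region of chromosome 3 (chr3:3126933-88168729, 230 genes), with 29 genes below and 0 above, PPARG and the retinoic acid receptor RARB among them. The median differences were -0.48 from SNU449-Axl-KO-ctrl and -0.34 from SNU449-Axl-KO-Rego but -0.08 from SNU449-ctrl, so that the unexposed parent was nearly as low. PPARG itself differed by -1.64 from SNU449-ctrl, -1.70 from SNU449-Axl-KO-ctrl and -1.33 from SNU449-Axl-KO-Rego, and the part of its position in these values was not tested. On chromosome 8 before its interval (chr8:406428-109565996, 232 genes), 28 genes were below and 0 above, with median differences of -0.15, -0.30 and -0.38. FABP5, GSR and NRG1 all lie in it. Of the 43 regions, the SNU449-Rego library medians were above all 9 others in 3 and below them in 8. For SNU449-ctrl these numbers were 3 and 4, for SNU449-Axl-KO-ctrl 4 and 3, and for SNU449-Axl-KO-Rego 3 and 0, so that on this scaling regional shifts of a whole population were found in every group. The numbers of regions were not counted again under the other scalings. Centring on the spike-in RNAs moved the median difference of the 8189 genes from -0.016 to -0.149. 

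**Figure D5:**
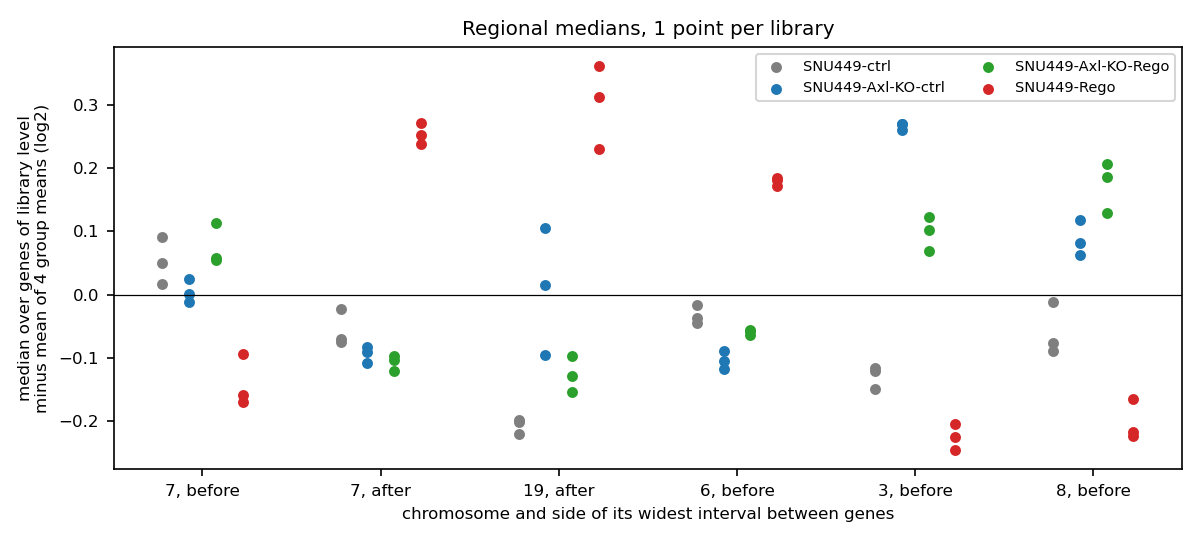
Median over the genes of 6 regions of the library level minus the mean of the 4 group means (log2), 1 point per library and 1 colour per group. The 3 SNU449-Rego points are the highest after the interval of chromosome 7 (0.24 to 0.27), after that of chromosome 19 and before that of chromosome 6, and the lowest before the intervals of chromosomes 7, 3 and 8.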

How the data were processed

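The 12 QuantSeq libraries of 4 groups were analysed from a table over all libraries. The authors trimmed reads with cutadapt 4.0, aligned them to GRCh38 with STAR 2.5.3a, counted them per gene of GENCODE release 40, removed weakly expressed genes and ran DESeq2 with the preparation date in its design. The library values deposited are scores, whole numbers that the authors obtained from variance-stabilized levels, corrected for preparation with limma and taken back from the log2 scale. They are not counts, and read depth per library is unknown. The only signal used is the mean normalized count, which the authors averaged over the libraries of the table. The tables also hold the authors' fold changes, standard errors, p-values and group averages, which were not used. Of the 8 tables, the 2 over all libraries and 3 of the pairwise ones entered the fits.

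Levels were log2(value + 1). The 32 spike-in rows were left out, and all 15601 genes were tested with limma 3.58.1 in R 4.3.3 (lmFit, contrasts.fit, eBayes with trend) with 4 group means and the replicate number as a block, with Benjamini-Hochberg adjustment over all genes and a threshold of 0.05. The labels do not give the preparation date of a library. That the removed preparation effect follows the replicate number was read from the values, and the block was kept on this reading. The means of the 3 numbers differed by a median of 0.00126, against 0.122 between a library and its group, and same-numbered libraries of different groups correlated at -0.485 to -0.0906 after the group means were subtracted. The procedure was checked on simulated data. Named were the 12 genes with the widest gap in each direction, AXL, and up to 5 called members of each list with related receptors and ligands. IGFBP7, WWTR1, AKR1C2, the genes differing from each group outside the first 24, those at the edge of the rule, those of regions and those given as not called were named after their values were seen. Members, lists and comparisons were chosen with earlier results of these data known. Coordinates are those of the tables, and start regions were taken from RefSeq (GRCh38.p14) by symbol. Some genes that were tested are not reported here by name.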

Additional observations from a re-analysis of the deposited data

How the results depend on the processing

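The counts above rest on 3 technical libraries per population and on values without known depth. Without the replicate block, 1915 genes were called against the mean of the other groups, 58 against each of them, and 157 list members. These fits count degrees of freedom that the removal of the preparation effect had used. Same-numbered libraries of different groups correlated at a median of -0.371, against 0.166 between other numbers. Removing an effect that follows the replicate number makes such values negative by itself. They therefore cannot show whether the numbers pair the populations. In genes with an authors' mean count of at least 50, 652 genes were called against the mean, 7 against each, and 604 had SNU449-Rego outside the 9 other libraries. The 3 pairwise tables gave 7 genes over 13233 genes, all 7 among the 25. Leaving out 1 library gave 307 to 971 genes against the mean, 10 to 20 against each, 1005 to 1683 outside the other libraries and 48 to 114 list members, and the lowest counts of calls were those without SNU449-Rego replicate 2. A pseudocount of 0 or 10, the other table over all libraries, no trend, and centring left these totals within 1.5 times. The genes behind the totals changed more under centring on the spike-in RNAs. Of the 849 genes then called against the mean, 600 were also called in the main fit. The same held for 17 of 29 genes called against each group and 455 of 893 outside the other libraries. Centring on the spike-in RNAs moved the median difference of all genes from -0.0088 to -0.14. The regional medians move by the same amount, since centring shifts all genes of a library alike. Among the 24 genes with the widest gaps and the 87 list members followed under each alternative, no value changed sign. The genes given as not called were not followed there.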
